A study of Danio rerio with 27 samples.

Results

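Sertoli and Leydig cells are the somatic cells that make the testis a testis. Sertoli cells nurse the germ cells, form the barrier around them and release Amh, Gsdf and inhibin, and Leydig cells lie between the tubules, take up cholesterol and turn it into androgens. The pituitary drives both through the receptors for follicle-stimulating hormone (FSH) and luteinizing hormone (LH), and in zebrafish the FSH receptor is found on Leydig as well as on Sertoli cells. The genes described here are 10 named members of these cell types, amh, gsdf, dmrt1, sox9a and fshr on the Sertoli side and insl3, star, cyp17a1, nr5a1a and lhcgr on the Leydig side, out of 32524 genes in the tables. The rule that picked them goes by gene name as textbook genes of these cells and uses no measured value, although results of these data were known when it was written.

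The libraries were made from polyadenylated RNA of adult wild-type zebrafish of the TLAB line, a cross of AB and TL. Each of 9 tissues, testis, brain, heart, intestine, liver, muscle, skin, spleen and tail, was taken as 3 replicates, which gave 27 libraries. All fish were untreated and no ovary was among the tissues. The labels do not say whether the replicates came from separate fish, so the p-values measure only the spread between these libraries, which may be technical, and testis is set beside tissues of fish whose sex is not given.

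The tables name genes by Ensembl ID, and 8 members matched 1 ID each. These were amh (ENSDARG00000014357), gsdf (ENSDARG00000075301), dmrt1 (ENSDARG00000007349), fshr (ENSDARG00000071494), insl3 (ENSDARG00000035862), star (ENSDARG00000006137), cyp17a1 (ENSDARG00000033566) and lhcgr (ENSDARG00000026081). For sox9a and nr5a1a the name table gave only the symbols SOX9 and NR5A1, each for 2 IDs, and which of each pair is the a copy and which the b copy was not resolved here. All 4 were therefore followed under the end of their ID, as sox9-3293 (ENSDARG00000003293), sox9-43923 (ENSDARG00000043923), nr5a1-23362 (ENSDARG00000023362) and nr5a1-103176 (ENSDARG00000103176). The 10 members thus gave 12 IDs, and all 12 passed the filter of at least 1 TPM in at least 3 libraries, which kept 25245 genes. Without the testis libraries amh, cyp17a1 and fshr would not have passed it. TPM, the unit of level throughout, is corrected for transcript length and library size.

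Estimated counts per library summed to between 5100481 and 14151312 in 26 libraries, and to 91119844 in testis replicate 3, which was 7.71 times as deep as the mean of the other testis libraries. The markers fixed for each tissue had their highest sums in it for brain, heart, intestine, liver, muscle, spleen and testis. They did not for skin, whose 2 keratin genes were highest in tail (36420 to 42350 TPM), nor clearly for tail, whose 3 fin genes summed to between 6.20 and 16.4 TPM, overlapping with brain (6.09 to 14.9 TPM) and testis (7.46 to 11.1 TPM). Liver markers reached 7123 to 38025 TPM in intestine. Muscle and skin shared markers: 3 skeletal muscle genes summed to between 17889 and 21044 TPM in skin and 19703 to 26949 TPM in muscle, and the keratin genes to between 2207 and 4449 TPM in skin and 6085 to 10422 TPM in muscle. The 14 germ-cell markers summed to between 3990 and 4897 TPM in testis and to at most 9.90 TPM elsewhere, except in muscle. Muscle gave 2.08 TPM in replicate 1, 53.8 TPM in replicate 2 and 13.3 TPM in replicate 3. Skin replicate 1 had 8.21 TPM, against 2.25 and 1.79 TPM in replicates 2 and 3. Tail replicate 3 had 8.89 TPM, against 1.98 and 2.75 TPM in replicates 1 and 2. Results that rest on muscle replicates 2 and 3 are given without these libraries as well, in a fit that takes the 1 muscle library left to vary like the other tissues. Tail replicate 1 and brain replicate 1 stood apart from their partners in single genes that are named where they matter.

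The first question was whether the members are genes of the testis in these fish. Of the 12 IDs, 11 were higher in testis than in the mean of the 8 other tissues and 1, sox9-43923, was lower (edgeR with Benjamini-Hochberg adjustment, called where the adjusted p was under 0.05 and the log2 fold change reached 1 in either direction). Among all genes tested, 33.5% were called higher and 20.8% lower in the same comparison. The median log2 fold change of the members was 7.31, or 6.24 with fshr set at its lower bound, against 0.22 over all genes tested. For 7 of the IDs all 3 testis libraries lay above all 24 others in TPM, which held for 26.3% of all genes. These counts include amh, cyp17a1 and fshr, which were tested only because of their testis level and so had to differ. Without these 3, 8 of 9 IDs were higher and 1 lower, the median was 3.47, and 4 IDs had all testis libraries above all others. The fitted values of insl3, star, cyp17a1, lhcgr and nr5a1-23362 also take in tissues where no library passed 3 counts. The medians of the members thus rest in part on fitted rather than measured folds. In bulk tissue, more cells of a type and more RNA per cell cannot be told apart.

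**Figure D1:**
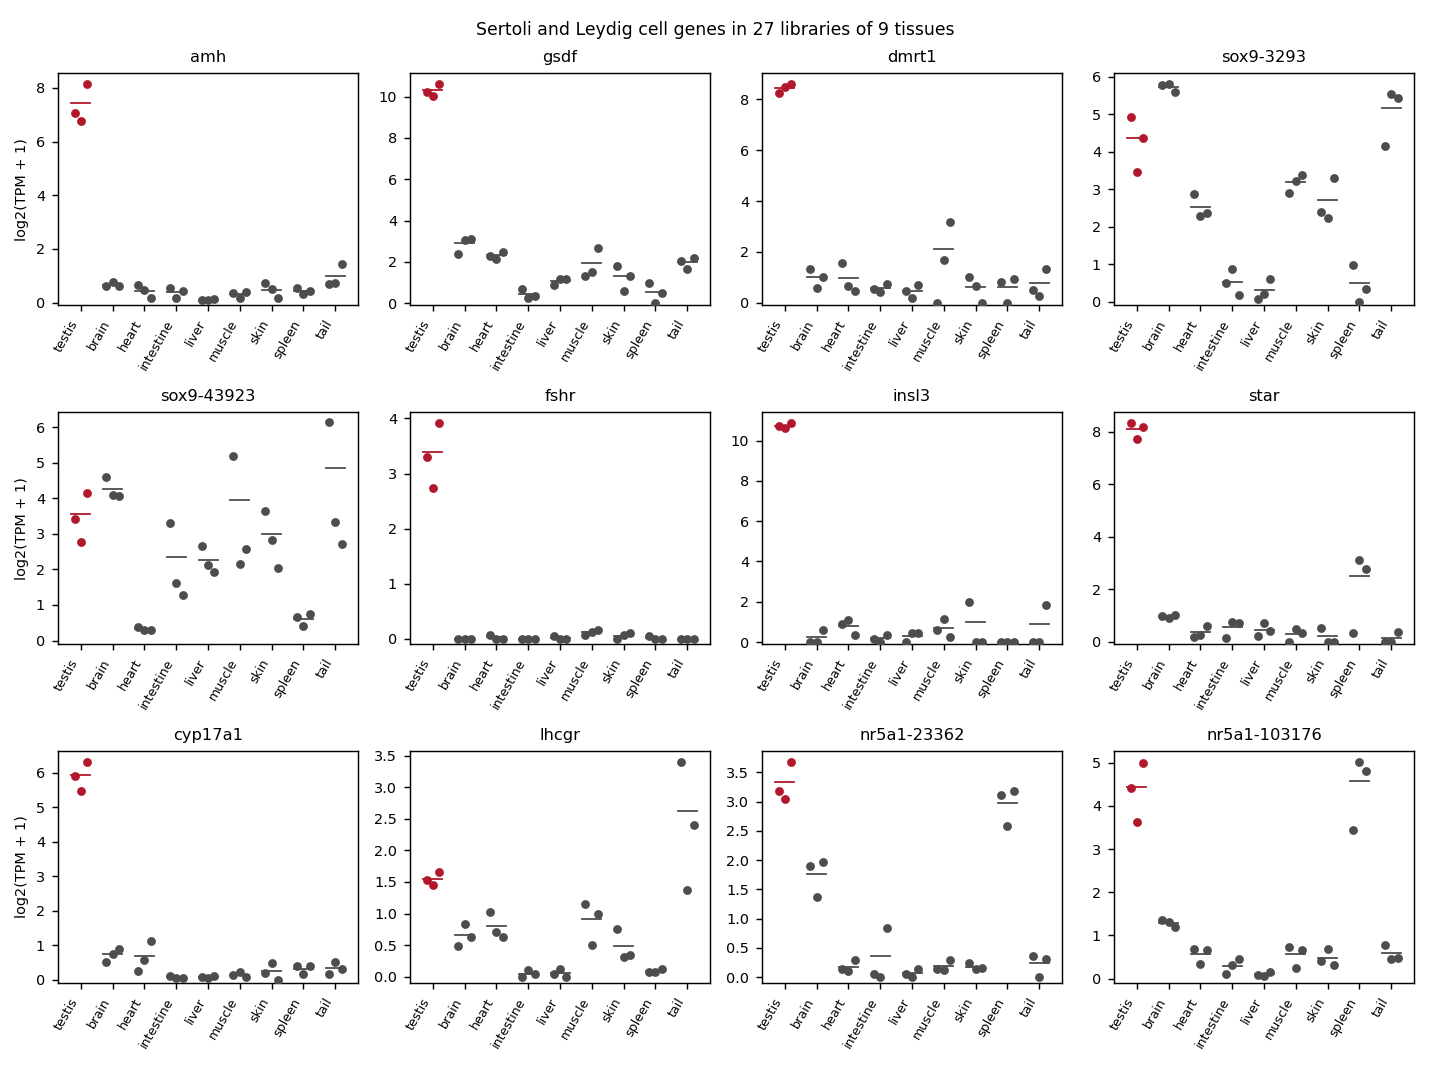
Level of each ID in every library, as log2(TPM + 1) on the vertical axis and tissues along the horizontal axis; points are libraries, lines the tissue mean in TPM, testis in red. The testis points of amh, gsdf, dmrt1, fshr, insl3, star and cyp17a1 lie above all 24 others, while sox9-3293 has its highest mean in brain (51.8 TPM), sox9-43923 and lhcgr in tail (27.9 and 5.16 TPM) and nr5a1-103176 in spleen (22.8 TPM).

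On the Sertoli side, gsdf was the most abundant member. It encodes gonadal somatic cell derived factor, a fish member of the TGF-beta family made by the somatic cells next to the germ cells. Its level was 1194, 1032 and 1553 TPM in testis, against 4.26, 7.33 and 7.68 TPM in brain, the next tissue in the order. The 2 groups did not overlap, and the log2 fold change of testis over the mean of the 8 tissues was 8.14 ± 0.23 (SE, edgeR, adjusted p 2.5e-18; here and below the SE is the fold change divided by the square root of edgeR's F statistic). Outside testis gsdf was not at background everywhere, since it reached 1 TPM in 16 of 24 libraries. In heart it lay at 3.90, 3.47 and 4.58 TPM, higher than in the mean of the 7 remaining tissues without testis (1.29 ± 0.36, SE, edgeR, adjusted p 0.0063). Brain, with the higher mean TPM, was not called in the like comparison (0.56 ± 0.35, SE, edgeR, adjusted p 0.17), so counts and TPM ordered these tissues differently.

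amh, the anti-Müllerian hormone gene, had 133, 107 and 282 TPM in testis. No library outside testis reached more than 1.70 TPM, the value of tail replicate 3. The testis libraries of amh differed more among themselves than those of any other member, with a coefficient of variation of 54.0% but did not overlap with any other tissue. The log2 fold change was 7.62 ± 0.24 (SE, edgeR, adjusted p 5.7e-18). Between the other tissues only tail was called higher (1.31 ± 0.39, SE, edgeR, adjusted p 0.0073), and without tail replicate 3 the value was 0.70 (edgeR, adjusted p 0.24). Tail replicate 3 also had the highest germ-cell marker sum of the tail libraries, at 8.89 TPM. The part of testis RNA in that library was not tested.

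dmrt1, a DM-domain transcription factor gene needed for testis development and known in zebrafish in germ cells as well as Sertoli cells, had 306, 358 and 386 TPM in testis. In muscle it had 0, 2.18 and 7.92 TPM, and in all other libraries at most 1.93 TPM. Testis and the rest did not overlap (8.48 ± 0.39, SE, edgeR, adjusted p 2.4e-15). Muscle was called higher than the 7 tissues left without testis (3.44 ± 0.58, SE, edgeR, adjusted p 4.0e-05). That call rested on muscle replicates 2 and 3, the libraries with germ-cell marker sums of 53.8 and 13.3 TPM. The value was 4.05 without muscle replicate 1 and 1.78 (edgeR, adjusted p 0.13) without muscle replicate 3. Without replicates 2 and 3 the fitted -6.16 comes from the 0 counts of muscle replicate 1 and is not a measured fold. The part of germ-cell RNA in it was not tested. The library with the most dmrt1 in muscle was replicate 3, while the library with the most germ-cell marker RNA was replicate 2.

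fshr, the receptor for FSH, was the only member with no more than 3 counts in any library outside testis. The bounds on its fold were smaller than those of insl3, but lower bounds cannot rank these genes by ratio. fshr had 8.85, 5.63 and 14.1 TPM in testis, from 192, 140 and 2322 estimated counts. In the 24 other libraries it had no more than 2 counts each, which is under the floor of 3 counts used here, so its ratio is a bound. On counts scaled to library size, testis was at least 44.1-fold higher than muscle and at least 68.8-fold higher than intestine, the lowest and highest of the 8 bounds (edgeR, adjusted p 1.2e-12 for testis against the mean of the 8 tissues). Muscle was called above the other tissues for fshr as well, but on 1 to 2 counts a library, and no fold is given. Without muscle replicates 2 and 3 the adjusted p was 0.36 (edgeR). These floors cover counting error only.

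The 2 sox9 IDs were found in many tissues. Sox9 is the transcription factor that fixes the Sertoli fate in mammals, and it also makes cartilage and acts in glia, so a broad pattern is known for it. sox9-3293 had 29.5, 10.0 and 19.5 TPM in testis, against 53.6, 54.7 and 47.1 TPM in brain. The testis values lay below all 3 brain values, and testis was lower than brain by the test (-1.37 ± 0.47, SE, edgeR, adjusted p 0.012), a call that was lost without testis replicate 2 (-1.10, edgeR, adjusted p 0.071). In tail it had 16.6, 45.7 and 41.9 TPM, and testis was lower there too (-1.83 ± 0.47, SE, edgeR, adjusted p 0.0015). Against the mean of the 8 tissues testis was higher (1.20 ± 0.33, SE, edgeR, adjusted p 0.0026), since intestine, liver and spleen had means of only 0.45, 0.24 and 0.40 TPM. Without testis replicate 1 that value was 0.83 and no longer called.

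sox9-43923 had 9.61, 5.86 and 16.9 TPM in testis. Outside testis its tissue means ran from 0.25 TPM in heart to 27.9 TPM in tail, and 2 tissues were uneven, with 69.0, 8.99 and 5.62 TPM in tail and 35.1, 3.44 and 5.0 TPM in muscle, so that tail replicate 1 and muscle replicate 1 carried much of their tissue's mean. In brain the 3 libraries were closer, at 23.3, 16.0 and 15.7 TPM. On counts, testis was lower than the mean of the 8 tissues (-1.64 ± 0.73, SE, edgeR, adjusted p 0.048), a call close to its threshold that was lost in 15 of the 27 fits that left out 1 library. It was lower than each of brain, intestine, liver, muscle, skin and tail, but with 1 library left out the calls were lost against intestine (-0.94, edgeR, adjusted p 0.37, without intestine replicate 1), muscle (-1.60, edgeR, adjusted p 0.096, without muscle replicate 1), skin (-1.86, edgeR, adjusted p 0.082, without skin replicate 1) and brain (-1.96, edgeR, adjusted p 0.074, without brain replicate 1). Against brain and intestine they were lost without any 1 of the testis libraries too, at adjusted p between 0.059 and 0.084 (edgeR). Against tail the value was -3.94, or -2.14 without tail replicate 1. The TPM did not show the same order, because testis had 10.8 ± 5.60 TPM (SD, n = 3), against 4.11 TPM in intestine, 3.79 TPM in liver and 6.90 TPM in skin.

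Counts and TPM of this gene gave different orders, and the tissues also differed in the transcripts that its reads were assigned to. The tables hold 1 line a gene, but the ratio of count to TPM carries the mean effective length of the transcripts behind the count. The lengths in the tables are those of a gene with 2 transcripts. The longer was set at the highest mean effective length in any library, 3130 bases, and the shorter at the rest of the gene's effective length, 575 bases. This takes at least 1 library to hold only the longer one. Solved for both, the shorter transcript made up 70.6%, 69.1% and 92.8% of the gene's TPM in testis. In the other tissues its share was between 0% and 42.5%, the highest in spleen replicate 1 on 15.5 counts and the next in skin replicate 3 at 30.7%. The testis libraries did not overlap with any other in this share. In TPM, the shorter transcript had 6.79, 4.05 and 15.6 in testis and 3.11, 0.53 and 3.30 in brain, and no other library had more than 2.24. The longer transcript had 2.82, 1.81 and 1.22 TPM in testis and 20.2, 15.4 and 12.4 TPM in brain. Testis thus had less of the longer and more of the shorter transcript than brain in all libraries. This measure was chosen after the values were seen and is given with no test. With an offset for effective length the difference on counts was -0.13 (edgeR, adjusted p 0.90). The scaling of TPM between libraries moved the difference as well, as given in the last section. The parts of length and of scaling were not tested.

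**Figure D2:**
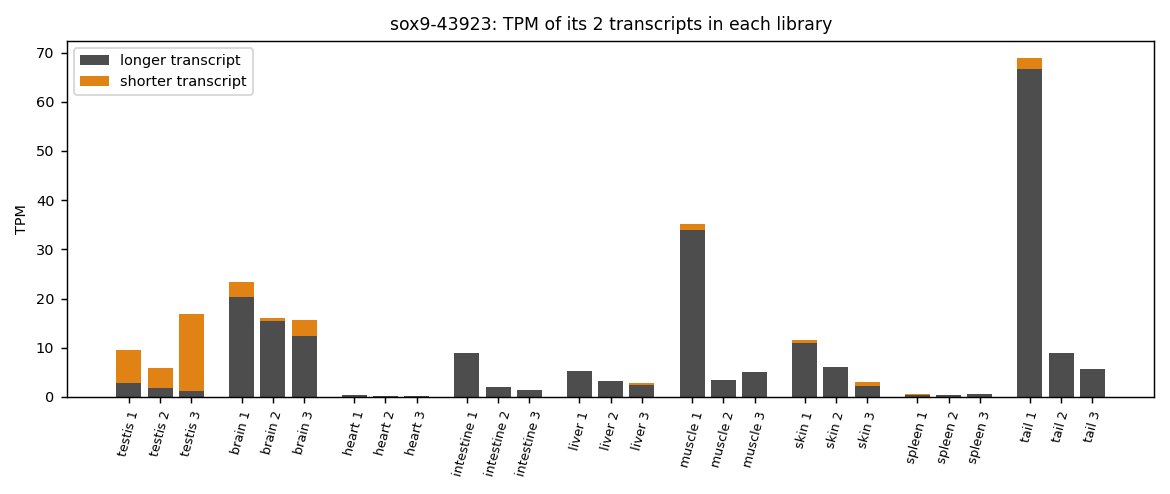
TPM of sox9-43923 on the vertical axis in each of the 27 libraries, split into its longer (dark) and shorter (orange) transcript as solved from counts, TPM and effective lengths. The shorter transcript is most of the bar in the 3 testis libraries (69.1% to 92.8%) and a small part in nearly all others, and tail replicate 1 and muscle replicate 1 stand far above their partners.

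The other Sertoli genes gave less to read in this way. For sox9-3293, with transcripts of 1495 and 703 effective bases by the same rule, the shorter one made up 5.61%, 3.61% and 14.0% of TPM in testis and 6.33%, 9.92% and 18.6% in brain, which overlap. dmrt1 has 9 transcripts in the annotation used, and its mean effective length was 1862, 1580 and 1618 bases in testis, against 1747 and 1491 bases in muscle replicates 2 and 3. Muscle replicate 2, on 20 counts, lay within the testis range and replicate 3, on 92 counts, below it. The remaining libraries with dmrt1 reads had only 1 to 14 counts each. They gave between 463 and 1101 bases, with 1 exception of 1677 bases in heart replicate 2 on 8 counts. At so few counts these lengths do not set muscle apart from the other tissues.

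On the Leydig side, insl3 was the most abundant gene of all members. It encodes insulin-like 3, a peptide hormone of Leydig cells. Its level was 1701, 1558 and 1869 TPM in testis, a coefficient of variation of 9.09% and the smallest of all members. In the other libraries it was at 0 or a few counts, with the most in skin replicate 1, at 3.01 TPM from 26 counts, and in tail replicate 3, at 2.60 TPM from 12 counts. All 3 spleen libraries were at 0. On counts scaled to library size, testis was at least 3571-fold higher than intestine, 3289-fold higher than liver, 2823-fold higher than brain and 2482-fold higher than spleen, the tissues in which no library passed 3 counts. Against the mean of the 8 tissues the fitted log2 fold change was 11.19 ± 0.44 (SE, edgeR, adjusted p 8.7e-16). It was 12.09 without skin replicate 1 and 11.92 without tail replicate 3, the libraries with the most insl3 outside testis. Skin was called above the 7 tissues left without testis (2.81 ± 0.95, SE, edgeR, adjusted p 0.025), but skin replicates 2 and 3 had no counts. The call was lost without skin replicate 1, where the fitted -4.38 comes from 0 counts and is not a measured fold. Skin replicate 1 and tail replicate 3 also had the highest germ-cell marker sums of their tissues, at 8.21 and 8.89 TPM. The part of testis RNA in these libraries was not tested.

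star encodes the steroidogenic acute regulatory protein, which carries cholesterol into mitochondria, the step that limits the rate of steroid synthesis. It had 322, 212 and 292 TPM in testis, against 0.25, 7.62 and 5.89 TPM in spleen. All other libraries had at most 1.03 TPM, the value of brain replicate 3. The log2 fold change of testis over the 8 tissues was 8.10 ± 0.38 (SE, edgeR, adjusted p 3.7e-15) and 8.71 without skin replicate 1, and testis was also higher than spleen alone. Heart, muscle and tail had 2 counts or fewer in each library, so testis was at least 570-fold, 542-fold and 790-fold higher there. Spleen was higher than the 7 tissues left without testis (3.84 ± 0.56, SE, edgeR, adjusted p 4.3e-06). In spleen replicate 1 star was at only 3 counts, against 49 and 72 counts in replicates 2 and 3. The value was 3.12 without spleen replicate 2, 4.49 without spleen replicate 1 and 4.54 without skin replicate 1, and remained called in all 3 fits.

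cyp17a1 encodes the 17-alpha-hydroxylase and 17,20-lyase on the way to androgens. Its level was 58.8, 43.1 and 79.0 TPM in testis and at most 1.19 TPM elsewhere, in heart replicate 3. Testis did not overlap with any tissue (7.01 ± 0.26, SE, edgeR, adjusted p 8.3e-17), and the bounds were at least 487-fold over intestine, 448-fold over liver and 313-fold over muscle. In heart it had 0.18, 0.49 and 1.19 TPM, higher than the 7 tissues left (1.92 ± 0.49, SE, edgeR, adjusted p 0.0032), but not without heart replicate 3 (1.04, edgeR, adjusted p 0.20). Brain, with a mean of 0.66 TPM against 0.62 TPM in heart, was not called (0.54 ± 0.48, SE, edgeR, adjusted p 0.35).

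lhcgr, the LH receptor and one route of pituitary control over Leydig cells, was the least abundant member in testis, at 1.88, 1.74 and 2.15 TPM. Its highest level was in tail, with 9.58, 1.58 and 4.31 TPM. The tail libraries ranged both below and above those of testis, and on counts testis was lower than tail (-2.43 ± 0.52, SE, edgeR, adjusted p 2.4e-04), by -1.69 without tail replicate 1 (edgeR, adjusted p 0.0061). Testis was higher than the mean of the 8 tissues (1.21 ± 0.39, SE, edgeR, adjusted p 0.0076), and at least 16.9-fold, 15.6-fold and 11.8-fold higher than intestine, liver and spleen, where no library passed 3 counts. Against heart, muscle and skin the difference was not called (0.04, -0.30 and 0.40, with edgeR adjusted p of 0.95, 0.64 and 0.54). In TPM, heart (1.03, 0.63 and 0.55), muscle (1.22, 0.42 and 0.99) and skin (0.69, 0.24 and 0.27) did lie below every testis library, so that their order depends on the scale. Tail was higher than the 7 tissues left without testis by 4.16 ± 0.35 (SE, edgeR, adjusted p 3.9e-10), the largest such value of a member outside spleen. Without tail replicate 1 it was 3.38 (edgeR, adjusted p 1.4e-07).

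Nr5a1, also called Sf1, is the nuclear receptor that turns on steroidogenic genes in gonad and adrenal, and in mice it also acts in the spleen. Both nr5a1 IDs were found in testis and spleen. nr5a1-103176 had 20.2, 11.3 and 30.9 TPM in testis, against 9.93, 31.5 and 27.1 TPM in spleen. These ranges overlap, and on counts testis was lower than spleen (-1.22 ± 0.40, SE, edgeR, adjusted p 0.010). The call was lost without spleen replicate 2 (-0.85, edgeR, adjusted p 0.092) and without testis replicate 2 (-0.99, edgeR, adjusted p 0.063). The means were close in TPM, at 20.8 ± 9.78 in testis and 22.8 ± 11.4 in spleen (SD, n = 3 each). nr5a1-23362 had 8.04, 7.27 and 11.8 TPM in testis, against 7.66, 5.0 and 8.02 TPM in spleen, and the 2 tissues did not differ beyond their spread (-0.69 ± 0.56, SE, edgeR, adjusted p 0.29).

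Every other tissue was lower than testis for both nr5a1 IDs. No heart or liver library passed 3 counts of nr5a1-23362, so testis was at least 44.6-fold and 60.9-fold higher there. Over the mean of the 8 tissues testis was higher by 3.38 ± 0.26 for nr5a1-103176 and 3.47 ± 0.39 for nr5a1-23362 (SE, edgeR, adjusted p 4.8e-11 and 3.2e-08). Brain came next for both, with 1.56, 1.49 and 1.28 TPM of nr5a1-103176 and 2.72, 1.59 and 2.90 TPM of nr5a1-23362, and brain was called above the 7 tissues left for nr5a1-23362 (1.74 ± 0.49, SE, edgeR, adjusted p 0.0036). For spleen the same comparison gave 5.26 ± 0.26 for nr5a1-103176 and 4.75 ± 0.40 for nr5a1-23362 (SE, edgeR, adjusted p 9.8e-14 and 9.5e-10). In the mean effective length of nr5a1-103176, a gene with 3 transcripts, testis and spleen overlapped. This length was 1780, 1903 and 1711 bases in testis and 1943, 1448 and 1729 bases in spleen, where replicate 2 lay below the testis range. All other libraries gave 2242 bases, except liver replicate 1 (1056 bases) and muscle replicates 2 and 3 (2195 and 1106 bases), which had 1, 2.08 and 5.12 counts. The libraries at 2242 bases had no more than 23.8 counts each, against at least 238 in testis and 246 in spleen. Few reads and a difference in transcripts cannot be told apart there.

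Beside nr5a1 and star, cyp17a1 lay at only 0.32, 0.12 and 0.31 TPM in spleen. tlx1, a spleen homeobox gene, had 0.86, 0.56 and 0.67 TPM in testis and 62.2, 29.2 and 39.6 TPM in spleen. A list of 11 markers of the interrenal, the fish counterpart of the adrenal, and of kidney includes cyp11c1, hsd3b1 and mc2r. Its summed level was 151 to 192 TPM in testis and 7.79 to 21.8 TPM in spleen, but 274 to 359 TPM in intestine, 45.0 to 49.6 TPM in brain and 123 TPM in muscle replicate 2, so the sum does not mark interrenal tissue alone. In each spleen library most of the sum came from nphs1, a kidney gene of the list, whose levels are given below. mc2r, the corticotropin receptor, was at 1.66, 1.23 and 1.13 TPM in spleen. The spleen levels of cyp11c1 and hsd3b1 are not given here. The part of interrenal cells in the spleen values was not tested.

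Members can also be set against each other as ratios of TPM inside each testis library, which do not measure cell numbers. fshr was 4.84 ± 1.67 times lhcgr, star 4.70 ± 0.91 times cyp17a1, insl3 1.38 ± 0.16 times gsdf and insl3 11.3 ± 4.13 times amh (SD, n = 3 each). Among the ratios given here, that of the Leydig gene insl3 to the Sertoli gene gsdf varied least, at 1.42, 1.51 and 1.20. Not all pairs of members were compared in this way, so others may vary less. That of insl3 to amh ranged from 6.64 in replicate 3 to 14.5 in replicate 2.

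The testis replicates differed along a shared line. Of the 12 IDs, 11 were lowest in testis replicate 2 and 10 were highest in replicate 3, with 9 doing both. Among the 21698 genes with a testis mean of at least 1 TPM, 56.6% were lowest in replicate 2, 42.9% highest in replicate 3, and 30.9% both. The median ratio of replicate 3 to replicate 2 was 1.73 over the members and 1.15 over these genes. Replicate 3 is also the library of 91119844 counts, and the part of depth or of tissue composition was not tested. Thinned to the mean depth of the other testis libraries, it gave the same 11 higher and 1 lower calls.

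Set against each tissue in turn, which gives 96 comparisons, testis was higher in 77, lower in 10 and not called in 9. That is 80.2% higher and 10.4% lower, against 33.4% and 24.1% of all genes tested in the same comparisons. Without amh, cyp17a1 and fshr, which passed the filter only through testis, 53 of 72 (73.6%) were higher. amh, gsdf, dmrt1, fshr, insl3, star and cyp17a1 were higher in testis than in all 8 tissues, both nr5a1 IDs than in 7, lhcgr than in 4, sox9-3293 than in 3 and sox9-43923 than in none. No share of all genes was taken for being higher than all 8 at once, so this only describes the members. By tissue, the higher calls among the 12 IDs were 10 in the comparison with brain (33.2% of all genes), 9 with heart (33.9%), 11 with intestine (34.8%), 11 with liver (36.0%), 9 with muscle (29.2%), 9 with skin (30.1%), 9 with spleen (34.7%) and 9 with tail (35.1%). The lower calls were 2 with brain (25.1%), 0 with heart (21.9%), 1 with intestine (25.1%), 1 with liver (20.8%), 1 with muscle (27.4%), 1 with skin (27.4%), 1 with spleen (20.4%) and 3 with tail (24.7%). These 10 were 6 of sox9-43923, 2 of sox9-3293 and 1 each of lhcgr, in tail, and nr5a1-103176, in spleen, and without testis replicate 2 there were 6.

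**Figure D3:**
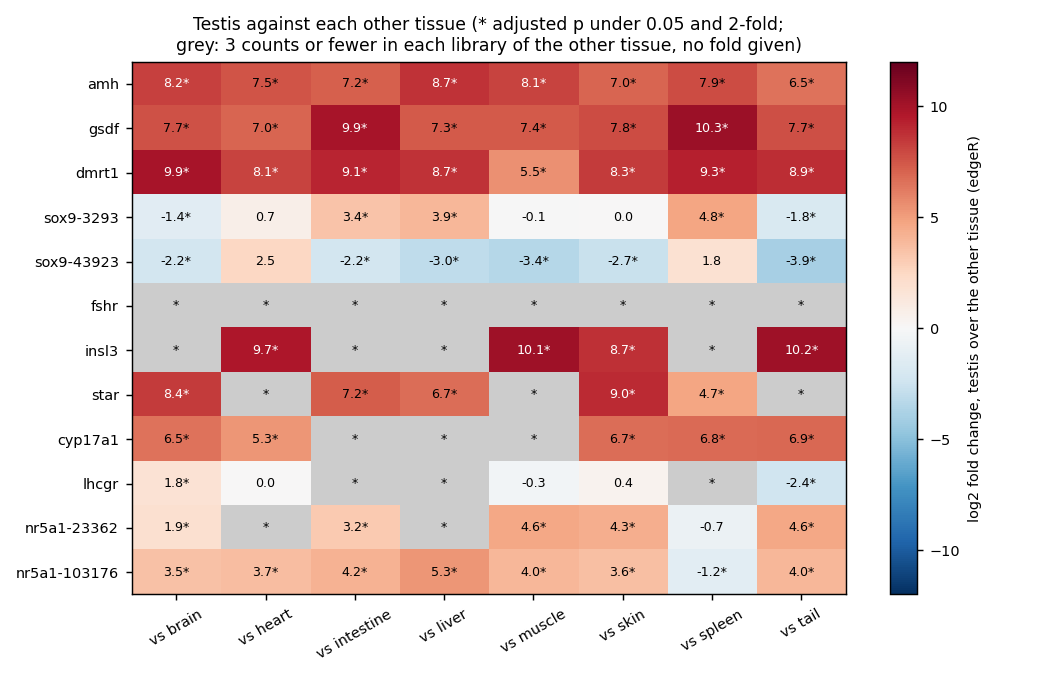
Log2 fold change (edgeR) of testis over each other tissue, IDs down the page and tissues across, red higher and blue lower in testis, a star for a call; grey squares have no fold because the other tissue had 3 counts or fewer in each library. The 7 IDs that were higher against all 8 tissues fill their lines with stars, and the blue squares are in sox9-43923, sox9-3293, lhcgr and nr5a1 (the lowest -3.94, sox9-43923 against tail).

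Among the 8 other tissues, set each against the 7 remaining ones without testis, 20 of 96 comparisons of the members were higher and 10 lower. At 20.8% and 10.4% these shares are near those of all genes tested, 18.2% and 13.7%, and so they say nothing particular of the members. Tail held 4 of the higher calls (17.8% of all genes) and 0 lower ones (14.6%), the higher being amh, both sox9 IDs and lhcgr. Muscle held 5 higher (19.0%) and 0 lower calls (3.09%), the higher being dmrt1, both sox9 IDs, fshr and lhcgr. Of these, sox9-43923 was at 0.22 (edgeR, adjusted p 0.91) without muscle replicate 1, and sox9-3293 at 1.17 without replicates 2 and 3. The fit without replicates 2 and 3 leaves only muscle replicate 1, so it cannot show whether a muscle call holds across libraries. Spleen held 3 (15.5%), star and both nr5a1 IDs, and 4 lower calls (15.8%), gsdf, both sox9 IDs and lhcgr. Heart held 3 higher calls (13.8%), gsdf, cyp17a1 and lhcgr, and 1 lower (11.1%), sox9-43923. Brain had 2 higher (25.9%) and 0 lower (22.8%), and skin 2 higher (18.8%) and 0 lower (4.53%). Liver had 1 higher (15.9%), sox9-43923, and 2 lower (21.3%), sox9-3293 and nr5a1-103176, and intestine 0 higher (18.6%) and 3 lower (16.4%), gsdf, sox9-3293 and lhcgr. Of these calls several rested on 1 library. In tail, sox9-43923 was at 0.77 (edgeR, adjusted p 0.37) without replicate 1. In skin, sox9-3293 was at 0.77 (edgeR, adjusted p 0.20) without replicate 3. In liver, sox9-43923 was at 0.87 (edgeR, adjusted p 0.39) without replicate 1 and nr5a1-103176 at -1.81 (edgeR, adjusted p 0.071) without replicate 2. For lhcgr, heart was at 1.03 (edgeR, adjusted p 0.22) without replicate 1, and muscle at 1.38 (edgeR, adjusted p 0.083) without replicate 1.

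Most neighbouring tissues in the order of levels were not told apart. Ranked by mean TPM, each ID has 8 pairs of neighbouring tissues, 96 in all, of which 23 differed on counts and 73 were not called. Over the same pairs 39.8% of all genes were called. The pairs are neighbours in the order of the ID but not in that of other genes. A lower share was thus favoured in advance, and the shares are not compared. Of the 23 calls, 22 followed the TPM order and 1 went against it, testis and skin for sox9-43923 (-2.69, edgeR, adjusted p 0.010). The first pairs were picked by rank in these same data, and no share of all genes was taken for them alone. Testis was called above the next tissue for the 7 testis-restricted IDs, of which amh, cyp17a1 and fshr were tested only because of testis. Of the 12 first pairs 9 were called. The other 3 were testis and spleen for nr5a1-23362 (edgeR, adjusted p 0.29), brain and tail for sox9-3293 (edgeR, adjusted p 0.40) and tail and brain for sox9-43923 (edgeR, adjusted p 0.075). As an index of restriction, tau, which is 0 for a gene equal in all tissues and 1 for a gene of one tissue, was 0.992 for fshr, 0.960 for insl3, 0.947 for cyp17a1, 0.937 for amh, 0.924 for star, 0.906 for dmrt1 and 0.852 for gsdf. It was 0.779 and 0.769 for the nr5a1 IDs, 0.764 for lhcgr, 0.589 for sox9-3293 and 0.445 for sox9-43923. Tau was taken on unscaled log2(TPM + 1). Among the 7 testis-restricted IDs, the share of tested genes with a lower tau ran from 79.6% for gsdf to 99.1% for fshr. Among the rest it ran from 29.6% for sox9-43923 to 70.7% for nr5a1-23362. amh, cyp17a1 and fshr passed the filter only through testis, which favours a high tau.

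**Figure D4:**
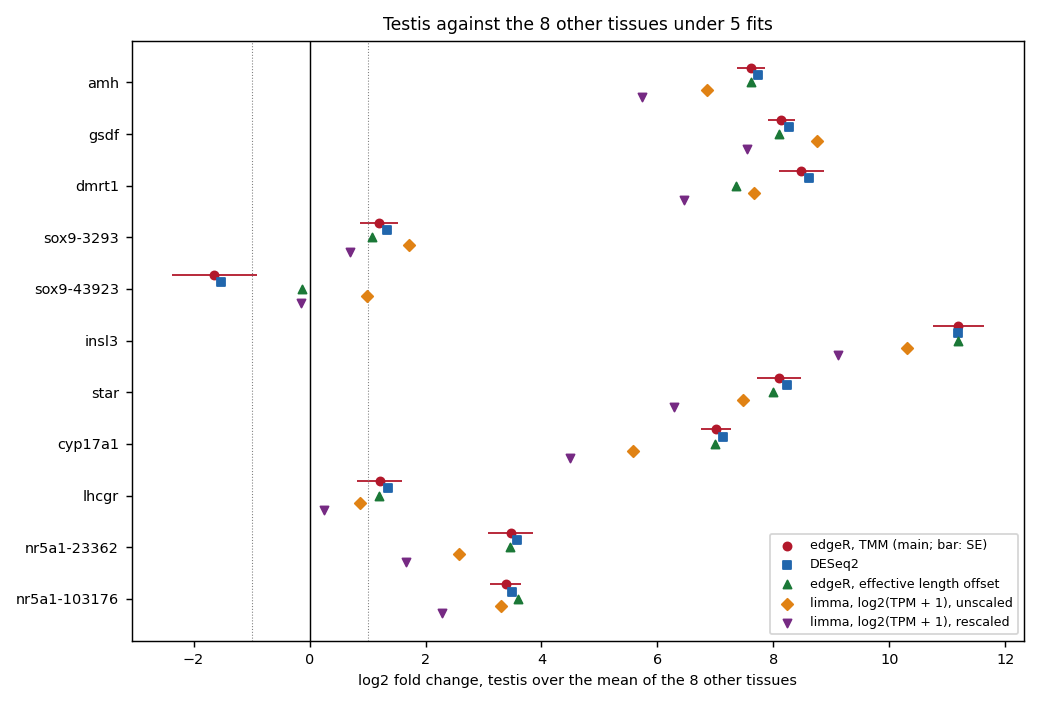
Log2 fold change of testis over the mean of the 8 other tissues for 11 IDs (fshr has only bounds and is left out), on the horizontal axis, under 5 fits; the bar is the SE of the edgeR fit with TMM. gsdf, dmrt1, insl3, star, amh and cyp17a1 stay far to the right under all 5, while sox9-43923 lies at -1.64 in that fit and at 0.99 with limma on unscaled TPM.

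Around the members stand the enzymes that make steroids. Of 20 listed steroidogenic IDs other than members, 9 were higher in testis (45.0%, against 33.5% of all genes), 9 lower (45.0%, against 20.8%) and 2 not called, with a median of -0.32. How many genes of this list and the next lists passed the filter only through testis was not counted, and such genes had to differ. fdx1b, the mitochondrial ferredoxin that serves steroid hormone synthesis in zebrafish, had 41.3 ± 5.16 TPM in testis (log2 fold change 9.73 ± 0.35), and one of 2 IDs for cyp11a1, the side-chain cleavage enzyme that starts the pathway, had 17.2 ± 1.93 TPM (cyp11a1-92696, 8.19 ± 0.42). cyp11c1, the 11-beta-hydroxylase of 11-ketotestosterone and cortisol synthesis, had 94.4 ± 7.04 TPM (7.67 ± 0.24). cyp17a2, the paralogue of cyp17a1 that acts on cortisol and progestin precursors, had 60.8 ± 20.5 TPM, close to cyp17a1 at 60.3 ± 18 TPM. hsd3b1, a 3-beta-hydroxysteroid dehydrogenase gene, had 47.1 ± 15.5 TPM in testis and 1.59, 22.3 and 37.9 TPM in tail. In these sentences levels are mean ± SD of 3 libraries and fold changes edgeR log2 values ± SE.

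The lower steroidogenic genes had their highest means outside testis. srd5a2-43587, a steroid 5-alpha-reductase gene, had 2.15 ± 0.34 TPM in testis against a mean of 738 TPM in tail (-5.06 ± 0.44), and the other srd5a2 ID, srd5a2-39067, was lower as well (-2.22 ± 0.60). hsd17b3, whose product makes testosterone in the mammalian testis, had 2.90 ± 0.53 TPM in testis against a mean of 102 TPM in liver (-2.08 ± 0.34). hsd20b2, an enzyme of cortisol breakdown in zebrafish, was lower (-2.91 ± 0.45), as was fdx1, the other ferredoxin gene (-1.83 ± 0.50) (SE, edgeR).

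**Figure D5:**
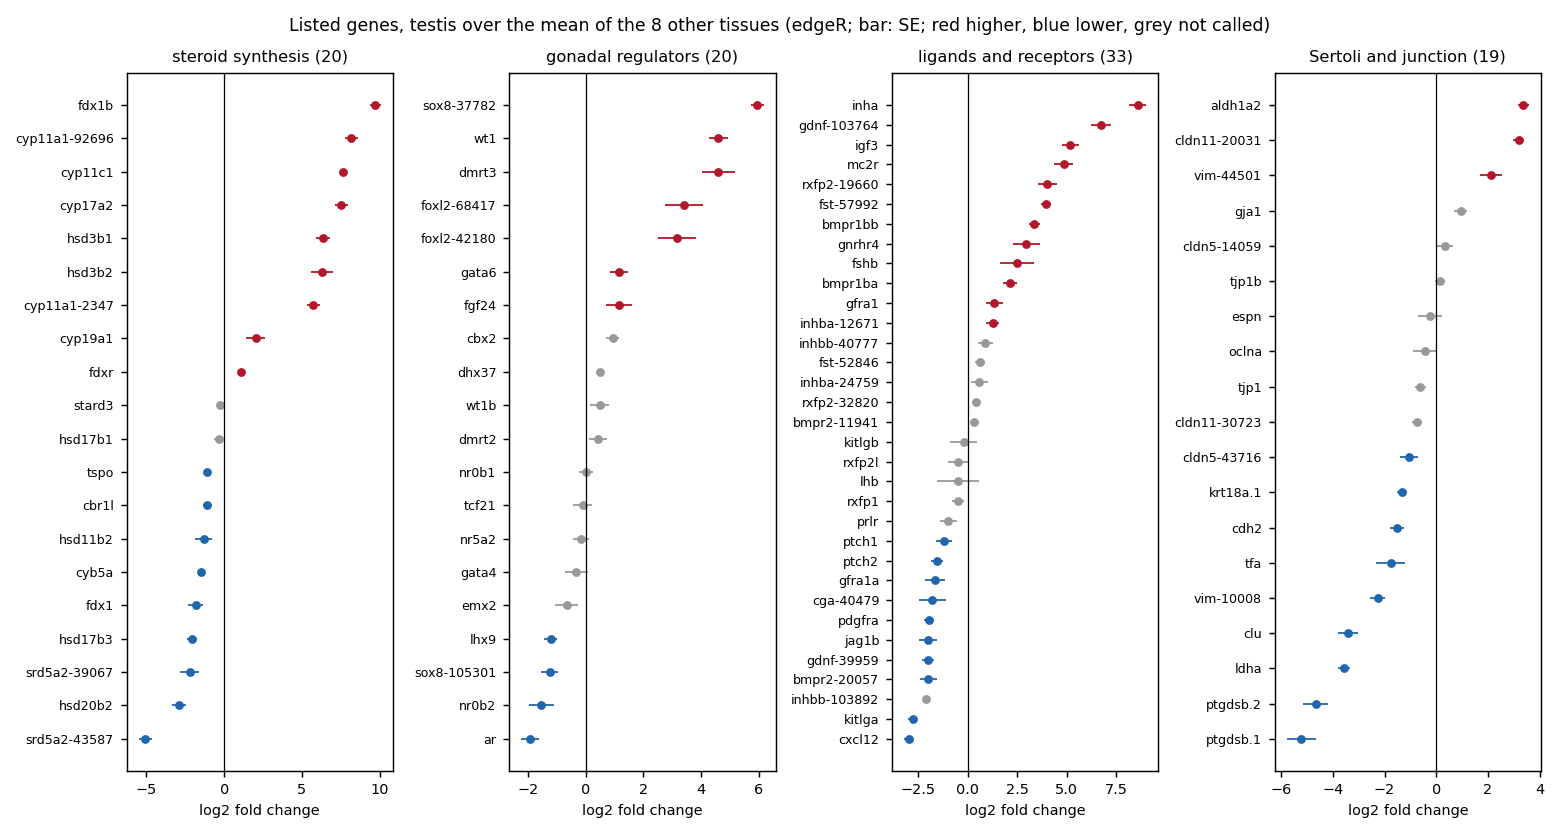
Log2 fold change of testis over the mean of the 8 other tissues on the horizontal axis for every tested ID of 4 lists, a panel a list, bar SE, red higher, blue lower, grey not called. Steroid synthesis splits into 9 higher and 9 lower, while the Sertoli and junction list has 3 higher and 9 lower.

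Of 20 regulators of the gonad, 7 were higher (35.0%), 4 lower (20%) and 9 not called, with a median of 0.46. These shares are near the 33.5% and 20.8% of all genes and show nothing particular of the list. sox8-37782, a close relative of sox9, had 83.3 ± 12.2 TPM in testis (5.94 ± 0.22), more than both sox9 IDs, while its other ID sox8-105301 had 1.0 ± 0.18 TPM (-1.25 ± 0.30). wt1, a regulator of gonad and kidney mesoderm, had 11.3, 7.66 and 16.1 TPM in testis and 32.1, 7.87 and 14.1 TPM in spleen (4.60 ± 0.32), a pairing of tissues like that of nr5a1. dmrt3 was higher at 2.0 ± 0.98 TPM (4.59 ± 0.57). Both foxl2 IDs, known for the ovary, were called higher (3.41 ± 0.66 for foxl2-68417 and 3.17 ± 0.66 for foxl2-42180), at 1.71 ± 0.81 and 0.53 ± 0.40 TPM, and both had their highest mean in brain. ar, the androgen receptor, had 11.9 ± 3.23 TPM in testis against a mean of 43.3 TPM in tail (-1.92 ± 0.31), and nr0b2 (-1.54 ± 0.44) and lhx9 (-1.21 ± 0.23) were lower too (SD, n = 3, and SE, edgeR).

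Of 33 tested ligand and receptor IDs, 12 were higher (36.4%, against 33.5% of all genes), 10 lower (30.3%, against 20.8%) and 11 not called, with a median of 0.35. The share of higher calls is near that of all genes. inha, the alpha subunit of inhibin released by Sertoli cells, had 117 ± 26.3 TPM in testis (8.58 ± 0.43). gdnf-103764, for the growth factor that keeps spermatogonial stem cells in mammals, had 18.8 ± 2.54 TPM (6.75 ± 0.50), whereas gdnf-39959 was lower (-1.98 ± 0.29). igf3, a gonadal insulin-like growth factor of fish that answers to FSH, had 11.6 ± 3.55 TPM (5.19 ± 0.45), and mc2r had 4.52 ± 1.0 TPM (4.85 ± 0.49). Of the receptors for Insl3, rxfp2-19660 was higher (3.22 ± 0.52 TPM, 4.02 ± 0.49) and rxfp2-32820 was not called, at 14.9 ± 1.44 TPM in testis and a mean of 22.0 TPM in tail. The lowest were cxcl12 (-2.95 ± 0.25), kitlga (-2.76 ± 0.22), bmpr2-20057 (-1.98 ± 0.43) and jag1b (-1.98 ± 0.45; SD, n = 3, and SE, edgeR).

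The pituitary hormones that act on fshr and lhcgr were read where they are made only in part, since the brain libraries differed. lhb had 311, 7.42 and 0.49 TPM in brain, and testis was not called against the 8 tissues (-0.49, edgeR, adjusted p 0.71). cga-40479, the shared alpha subunit, had 225, 9.03 and 4.25 TPM in brain and was lower in testis (-1.77, edgeR, adjusted p 0.022). fshb had 1.15, 0.88 and 1.04 TPM in testis and 12.6 TPM in brain replicate 1, and was called higher in testis (2.50, edgeR, adjusted p 0.013). Brain replicate 1 thus held nearly all of the gonadotropin RNA of the brain libraries.

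Of 19 IDs for the Sertoli barrier and other Sertoli products, 3 were higher (15.8%, against 33.5% of all genes), 9 lower (47.4%, against 20.8%) and 7 not called, with a median of -0.75. aldh1a2, which makes retinoic acid, had 199 ± 24.6 TPM in testis (3.36 ± 0.22). cldn11-20031, for a tight junction claudin, had 183 ± 26.4 TPM (3.19 ± 0.21), and vim-44501, for the intermediate filament vimentin, had 5.78 ± 1.30 TPM (2.12 ± 0.42). Lower were ptgdsb.1 (-5.22 ± 0.57), ptgdsb.2 (-4.67 ± 0.48), ldha (-3.57 ± 0.22), clu (-3.41 ± 0.39) and vim-10008 (-2.27 ± 0.30; SD, n = 3, and SE, edgeR). Clusterin and prostaglandin D synthase are secreted by mammalian Sertoli cells, and the list was drawn from such mammalian knowledge.

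Lists of markers drawn up for other cells were set beside the members. All 14 germ-cell markers were higher, and the median of their log2 values was 9.33. That of the members was 7.31, or 6.24 with fshr at its lower bound, and 3.47 without amh, cyp17a1 and fshr. How many markers passed the filter only through testis was not counted, and such genes had to differ, so these medians are not compared. All 10 tested ovarian and oocyte markers were called higher too, though their sum was only 33.6 to 41.9 TPM in testis, against at most 12.2 TPM elsewhere. Of 11 interrenal and kidney markers 8 were higher, and of 9 vessel, smooth muscle, blood and macrophage markers none was higher and 7 were lower. The interrenal list includes cyp11c1 and hsd3b1, which are also steroidogenic genes named above, so it does not mark interrenal cells alone. Over all genes the shares were 33.5% higher and 20.8% lower. Their part in the members' values was not tested.

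The genes whose profile was most like that of a member, by Pearson's r of log2(TPM + 1) over the 27 libraries, divided the members again. The libraries share their tissues, so r is a description only. For the testis-restricted IDs the likeness was not specific, with 1295 genes above r of 0.95 for amh, 837 for gsdf, 1038 for dmrt1, 1207 for insl3, 1410 for cyp17a1, 334 for star and 1220 for fshr. The nearest were EGFLAM, pimr125 and si:dkey-78l4.13 for amh, KATNAL2, TDRD9 and gucy2d for gsdf, HSF2BP, DAZL and DDX4 for insl3, inha, si:dkey-267j14.7 and SYCP3 for dmrt1, CPD, PROX2 and taf4b for cyp17a1, pimr192, pimr47 and pimr193 for star, and si:ch211-233m11.5, mespba and pimr138 for fshr. DDX4, DAZL and SYCP3 are germ-cell genes.

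The remaining IDs had few or no genes above that limit. nr5a1-23362 had 1, NPHS1 (r = 0.963), the gene of nephrin, followed by LRATD2 (0.946) and the other nr5a1 ID (0.939). nphs1 had 9.41, 8.0 and 9.92 TPM in testis and 11.3, 4.87 and 13.6 TPM in spleen. nr5a1-103176 had 4, led by si:ch211-278p9.3, ppp1r18 and si:zfos-480g10.1 (0.953, 0.953 and 0.952), and sox9-3293 had 2, PDAP1 (0.967) and UCHL1 (0.960), with INHBA next (0.945). sox9-43923 and lhcgr had none. SEMA4B, ankrd50l and asap3 were nearest to sox9-43923 (0.861, 0.853 and 0.848), and dlx4b, foxr1 and si:ch211-153m11.1 to lhcgr (0.898, 0.889 and 0.887).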

How the data were processed

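RNA was extracted with TRIzol and strand-specific libraries were made from polyadenylated RNA. The deposited tables, 1 per library, hold estimated counts and TPM per Ensembl gene, both as made by the authors. The submitters' processing notes name kallisto 0.43.0, HISAT2 2.1.0, cutadapt 1.18 and SAMtools 1.9 with GRCz11, and which of them made these values is not given in the sources used here. Estimated counts from such tools share reads between near-identical copies, so values of paralogues are less certain.

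Estimated counts were rounded to whole numbers and fitted with edgeR 4.0.16 (glmQLFit, glmQLFTest, TMM, R 4.3.3), 1 mean per tissue over 27 libraries, for 25245 of 32524 genes. A call needed a Benjamini-Hochberg adjusted p under 0.05, adjusted over all genes tested, and a log2 fold change no smaller than 1 in size. Alternatives were other scaling factors, DESeq2 1.42.0, limma 3.58.1 on log2(TPM + 1) and log2(TPM + 0.1), no filter, a length offset, a replicate block and leaving out each library. Thinning testis replicate 3 and leaving out muscle replicates 2 and 3 were added after seeing the data. Scripts were tested on simulated data.

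A fold against a tissue with 3 counts or fewer in each library is a lower bound from 3 counts in each library. Mean effective lengths were taken from the ratio of count to TPM, scaled with single-transcript genes, whose ratio per effective base was the same within each library. The members and gene lists were chosen with earlier results of these data known. Beside all members, the text names up to 5 called genes per list and direction, a few paralogues, hormones and receptors, and the 3 genes most like each member, with marker genes by list. Gene symbols came from a name table, some in capitals as for human genes, which covered 29201 of 32524 IDs. No coordinates or sequences are given, since no genome of the files' build was used here.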

Additional observations from a re-analysis of the deposited data

How the results depend on the processing

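The 11 higher calls of the members against the mean of the 8 tissues were 10 or 11 when 1 library was left out. For amh, gsdf, dmrt1, insl3, star, cyp17a1, fshr and both nr5a1 IDs the testis call kept its direction and its side of the threshold under every alternative. The lower call, sox9-43923 at -1.64, did not: it was -1.53 (edgeR, adjusted p 0.062) with RLE factors, -0.14 (limma, adjusted p 0.83) on rescaled log2(TPM + 1), -0.13 (edgeR, adjusted p 0.90) with the length offset, and turned to 0.99 (limma, adjusted p 0.11) on unscaled log2(TPM + 1) and 1.42 (limma, adjusted p 0.043) on log2(TPM + 0.1), so that 0 members were called lower under these 5. Against single tissues it turned, on log2(TPM + 1) and log2(TPM + 0.1), to 1.38 and 1.69 for intestine, 1.22 and 1.40 for liver, 0.14 and 0.21 for muscle and 0.62 and 0.70 for skin, and liver against the 7 tissues left to -0.27 on log2(TPM + 1). sox9-3293 was 0.69 (limma, adjusted p 0.042) on rescaled TPM, and lhcgr 0.87 (limma, adjusted p 0.0011) on unscaled and 0.25 (limma, adjusted p 0.31) on rescaled log2(TPM + 1).

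Unscaled TPM moved the median over all genes, on the log2 scale, from 0.22 to 0.89 with log2(TPM + 1) and 1.43 with log2(TPM + 0.1), and the share of calls that were higher from 61.6% to 90.0% and 91.1%. Rescaled TPM gave -0.01 and 57.9%. Of all genes, 1312 and 1436 were lower in those unscaled fits, against 5263 in the edgeR fit, and 14736 were higher on log2(TPM + 0.1), against 8457. Against each tissue, lower calls of members were 1 on unscaled and 3 on rescaled log2(TPM + 1), 0 on log2(TPM + 0.1) and 5 with the length offset, against 10. Among the other tissues, higher calls were 10 on unscaled and 7 on rescaled log2(TPM + 1), against 20, and lower calls 17 on log2(TPM + 0.1), against 10. Neighbouring pairs in order were 13 on unscaled log2(TPM + 1), against 22. On unscaled, rescaled and log2(TPM + 0.1) values, the lower calls were 2, 5 and 2 for steroid synthesis (9 in the edgeR fit), 0, 2 and 0 for regulators (4) and 2, 5 and 3 for ligands and receptors (10). Higher calls were 2 for regulators (7) and 7 for ligands and receptors (12) on rescaled values, and 13 for regulators on log2(TPM + 0.1). The Sertoli and junction list gave 7 higher (3) and 5 lower (9) on unscaled log2(TPM + 1), and 7 and 4 on log2(TPM + 0.1). The cause of these shifts was not tested.

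With 1 library left out, sox9-43923 ranged from -1.75 to -1.41 and sox9-3293 from 0.83 to 1.47, members called lower were 0 to 1, and lower calls against single tissues 6 to 10. dmrt1 in muscle was -6.16 without muscle replicates 2 and 3, and insl3 in skin ranged from -4.38 without skin replicate 1 to 3.64 without tail replicate 3. Both negative values come from libraries with 0 counts and are not measured folds. With the replicate number as a block, all genes gave 8525 higher and 5281 lower, members 11 and 1, and members against single tissues 79 and 10. Same-numbered libraries deviated together with a mean r of 0.107, over 0.1 in 54 of 108 pairs, and all 27 were on average closest to their own number. Whether libraries of 1 number share a fish or a batch was not tested. The main fit does not use the numbers, while the block fit does. Depth limits what can be said of insl3, star, cyp17a1, fshr and lhcgr in the tissues where no library passed 3 counts.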
